A study of Mus musculus with 6 samples.

Results

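The 10 genes described here restrain the cell cycle, and their promoters were followed in mouse prospermatogonia, which are the germ cells of males before birth, at E16.5, during their mitotic arrest. The 10 genes were taken by name from all 21571 protein-coding genes of the annotation: the cyclin-dependent kinase inhibitor genes Cdkn1a, Cdkn1b, Cdkn2a, Cdkn2b, Cdkn2c and Cdkn2d, the pocket protein genes Rb1, Rbl1 and Rbl2, and E2f4. A row of a deposited list counted for a gene when its annotated transcript or its nearest start site belonged to that gene, which gave 6 rows of 7861 in TAF4b replicate 1, 1 of 848 in TAF4b replicate 2, 19 of 64891 in H3K4me3 replicate 1 and 2 of 1730 in H3K4me3 replicate 2.

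CUT&RUN, in which an antibody brings a nuclease to its antigen and the released DNA is sequenced, was run with an antibody against TAF4b, a germ cell-enriched subunit of the general transcription factor TFIID, against H3K4me3, a histone mark of active promoters, and with control IgG. Each of the 3 groups had 2 replicates, and the IgG libraries were not analysed here. All groups shared 1 genotype, wild type for Taf4b, 1 strain label, C57BL/6, and male sex. Embryos came from matings of mice homozygous for an Oct4-EGFP transgene (B6;129S4-Pou5f1tm2Jae/J), live cells of the gonads were sorted on green fluorescence, and whether the replicates came from separate litters is not stated in the labels.

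Cyclin-dependent kinases drive the cell cycle by phosphorylating the pocket proteins, which otherwise hold E2F factors at the promoters of cell cycle genes and keep those promoters silent. Inhibitors of the INK4 family (Cdkn2a to Cdkn2d) bind CDK4 and CDK6, and inhibitors of the CIP/KIP family (Cdkn1a, Cdkn1b) bind complexes of cyclins with kinases more broadly. Male germ cells stop dividing in the fetal testis and resume after birth, and p27 (Cdkn1b), p15 (Cdkn2b) and the retinoblastoma protein (Rb1) are known for their part in that arrest in mice.

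The lists gave no read totals, so their depth is unknown, and the second replicate was much the smaller for both antibodies. As a check of the cell label, TAF4b replicate 1 had promoter rows at 6 of 10 germ cell markers, beside 22.9% of all protein-coding genes. It had them at 0 of 20 markers of Sertoli, interstitial, endothelial and blood cells. TAF4b replicate 2 had none at either, beside 3.17% of all genes. TAF4b is enriched in germ cells, so missing rows at the other markers cannot show that other cells were absent. H3K4me3 replicate 1 had promoter rows at 5 of 10 germ cell markers and at 9 of the 20 others, among them Gata4, Wt1 and Pdgfra, both shares being near the 44.3% of all protein-coding genes, so that this list does not check the label. Within 1000 bp of a start site the counts were 9 of 10 and 10 of 20, and the latter included 1 of the 4 blood cell genes, Ptprc, beside 62.4% of all genes. H3K4me3 replicate 2 had promoter rows at none of either, beside 4.16% of all genes. Within 1000 bp it had rows at Sall4, a germ cell marker, and Wt1, beside 5.93%. The part of other cell types in the H3K4me3 rows below was not tested. A score is the authors' value with no stated normalization, so that it is compared only within its own list.

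The promoter sequences of 5 genes are shown because the TAF4b rows below fall at or next to 4 of them and are missing from the fifth. Each runs from 250 bases before to 30 bases after the most upstream coding start of GENCODE M39 on GRCm39 (for Cdkn2a, the start of the ARF transcript), 5′ to 3′ on the gene's strand. Capitals mark matches on either strand to a GC box (GGGCGG), an E2F-type sequence (TTTGGCGC, TTTCCCGC, TTTCGCGC or TTTGCCGC), a CRE (TGACGTCA), a CCAAT box, searched as those letters, or a CHR. The CHR element, bound by the complex that holds the pocket proteins in resting cells, was searched as TTTGAA. Its other accepted spelling, which was searched in the same way and on both strands, is TTCGAA. Where matches overlap the capitals run on, as in a pair of GC boxes near the start of the Cdkn2a window and in an E2F-type match and a pair of GC boxes in Cdkn2d.
Cdkn1b, chr6:134897114-134897393, plus strand: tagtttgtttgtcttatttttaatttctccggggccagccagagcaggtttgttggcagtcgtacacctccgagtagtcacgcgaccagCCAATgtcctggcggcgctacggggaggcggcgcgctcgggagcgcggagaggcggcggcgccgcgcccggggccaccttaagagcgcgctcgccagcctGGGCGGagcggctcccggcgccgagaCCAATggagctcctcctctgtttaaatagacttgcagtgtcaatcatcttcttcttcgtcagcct
Cdkn2a (ARF), chr4:89212861-89213140, minus strand: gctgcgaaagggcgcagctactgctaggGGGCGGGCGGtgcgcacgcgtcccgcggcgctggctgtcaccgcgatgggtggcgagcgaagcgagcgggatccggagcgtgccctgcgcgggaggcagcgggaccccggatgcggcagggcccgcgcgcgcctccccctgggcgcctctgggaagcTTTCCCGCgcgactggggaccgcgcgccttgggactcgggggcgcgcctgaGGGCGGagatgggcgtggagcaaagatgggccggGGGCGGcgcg
Cdkn2b, chr4:89229247-89229526, minus strand: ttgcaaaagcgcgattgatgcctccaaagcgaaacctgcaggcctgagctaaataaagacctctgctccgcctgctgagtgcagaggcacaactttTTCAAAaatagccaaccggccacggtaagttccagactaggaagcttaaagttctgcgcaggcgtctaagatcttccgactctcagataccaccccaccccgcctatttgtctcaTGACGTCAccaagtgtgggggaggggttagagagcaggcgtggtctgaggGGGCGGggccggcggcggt
Cdkn2d, chr9:21202698-21202977, minus strand: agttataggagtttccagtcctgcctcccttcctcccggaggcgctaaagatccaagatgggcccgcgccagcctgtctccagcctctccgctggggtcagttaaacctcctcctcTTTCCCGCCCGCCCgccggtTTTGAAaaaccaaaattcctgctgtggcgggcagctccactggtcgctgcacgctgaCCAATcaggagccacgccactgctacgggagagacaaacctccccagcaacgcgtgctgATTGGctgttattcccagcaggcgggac
Rbl1, chr2:157046446-157046725, minus strand: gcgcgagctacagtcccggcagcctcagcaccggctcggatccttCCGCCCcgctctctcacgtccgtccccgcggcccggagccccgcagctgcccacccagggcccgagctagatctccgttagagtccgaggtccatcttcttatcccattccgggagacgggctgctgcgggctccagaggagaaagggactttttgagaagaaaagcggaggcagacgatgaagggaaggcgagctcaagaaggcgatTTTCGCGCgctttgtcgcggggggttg

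Of the 10 genes, 5 had a TAF4b row of the promoter class in replicate 1: Cdkn2a, Cdkn2b, Cdkn2d, Rb1 and Rbl2. Over all protein-coding genes the share with such a row was 22.9%. In replicate 2 the only one was Cdkn1b, where the share over all genes was 3.17%, and Cdkn1b had no row in replicate 1. No gene of the group had a TAF4b row in both replicates, and of all replicate 1 rows 8.37% overlapped one of replicate 2. The mean over the replicates was 3 of the 10 genes, with an SD of 2.83 (n = 2), and no test was made on 2 libraries. Under a wider rule, a nearest start site within 1000 bp, Cdkn2c joined the 5 in replicate 1 to make 6, beside 24.0% of all genes, and Cdkn1b stayed alone in replicate 2, beside 3.23%. Any row named to the gene gave the same 6 and 1 genes, beside 29.1% and 3.85%, and intervals within 500 bp of an annotated start again gave 6 and 1, beside 28.3% and 4.09%. Intervals covering a coding start numbered 4 in replicate 1 (Cdkn2a, Cdkn2b, Rb1 and Rbl2), beside 17.0%, and 1 in replicate 2, beside 2.52%.

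**Figure D1:**
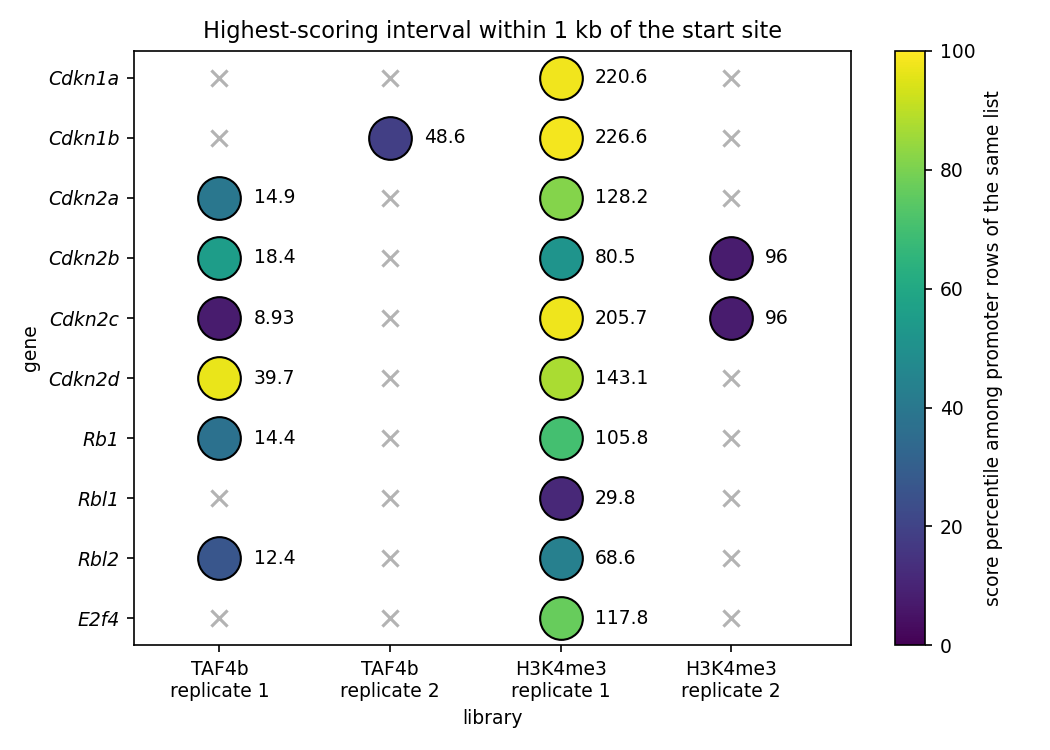
Highest-scoring interval within 1 kb of the reference coding start site of each gene (rows) in each library (columns), with the authors' score beside each circle and its percentile among promoter rows of the same list as colour; a cross marks no interval. All 10 genes have an interval in H3K4me3 replicate 1, and in TAF4b the gene listed in replicate 2 is not among the 6 listed in replicate 1.

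By family, promoter-class TAF4b rows in either replicate were listed at 3 of 4 INK4 genes, 2 of 3 pocket protein genes, 1 of 2 CIP/KIP genes and not at E2f4, beside 23.3% of all protein-coding genes. Cdkn2d, which encodes the CDK4 and CDK6 inhibitor p19 (INK4D), had the strongest row of the group, with a score of 39.7 and rank 193 of 7861 in replicate 1, at the 96.7th percentile among promoter rows of that list. It lay on chromosome 9 at 21202548 to 21202690, 15 bp upstream of the start site used in the deposited annotation (21202604). Against the reference start, the one used by the most coding transcripts in GENCODE M39 (21202727, ties going to the most upstream), the same interval lay downstream, from 37 to 179 bp, just past the end of the printed Cdkn2d window.

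Cdkn2b, which encodes p15 (INK4B), had a TAF4b row with a score of 18.4 (rank 2744, 55.3rd percentile) on chromosome 4 at 89229241 to 89229383. It covered the only coding start of the gene, reaching from 107 bp upstream to 35 bp downstream. The row thus held the CRE, whose first base is at -39 (counted from the start site, upstream negative), and the GC box at 12.

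Cdkn2a makes unrelated proteins from separate promoters, p19ARF, which stabilizes p53, and p16INK4A, which inhibits CDK4 and CDK6. Its TAF4b row lay at the ARF start, at 89212797 to 89212939 on chromosome 4, from 49 bp upstream to 93 bp downstream, with a score of 14.9 (39.8th percentile). No TAF4b row was listed at the INK4A start, 12461 bp further downstream. Cdkn2c, which encodes p18 (INK4C), had the weakest row, with a score of 8.93 (7.6th percentile among promoter rows), at 109524081 to 109524223 on chromosome 4. That row was classed as exon, 234 bp downstream of the reference start at 109524386, and so lay between that start and a further coding start at 109524043.

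Cdkn1b encodes p27, a CIP/KIP inhibitor. Its row in replicate 2 had a score of 48.6, rank 635 of 848, which is the 18.7th percentile of promoter rows in a list whose lowest score was 40.5. It lay on chromosome 6 at 134897222 to 134897410, from 142 bp upstream to 46 bp downstream of the start, and held the GC box at -61 and the CCAAT box at -35 of the printed sequence. Of all replicate 2 promoter rows, 81.3% overlapped a replicate 1 row and 18.7% did not, and the Cdkn1b row was among those that did not. Cdkn1a, which encodes p21, a target of p53, had no TAF4b row in either replicate, and none lay within 10 kb of the gene under any gene's name.

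Among the pocket proteins, Rb1 and Rbl2 (p130) each had a TAF4b row in replicate 1 and Rbl1 (p107) had none in either. The Rb1 row (chromosome 14, 73563501 to 73563643, score 14.4, 37.3rd percentile) reached from 136 bp upstream to 6 bp downstream of the start shared by all 11 coding transcripts. Its deposited distance of -310 bp refers to a start site further inside the gene, at 73563262. The Rbl2 row (chromosome 8, 91796657 to 91796799, score 12.4, 26.7th percentile) reached from 7 bp upstream to 135 bp downstream of the start. E2f4, which encodes the E2F factor that works mainly with p130 and p107 as a repressor in resting cells, had no TAF4b row in either replicate.

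**Figure D2:**
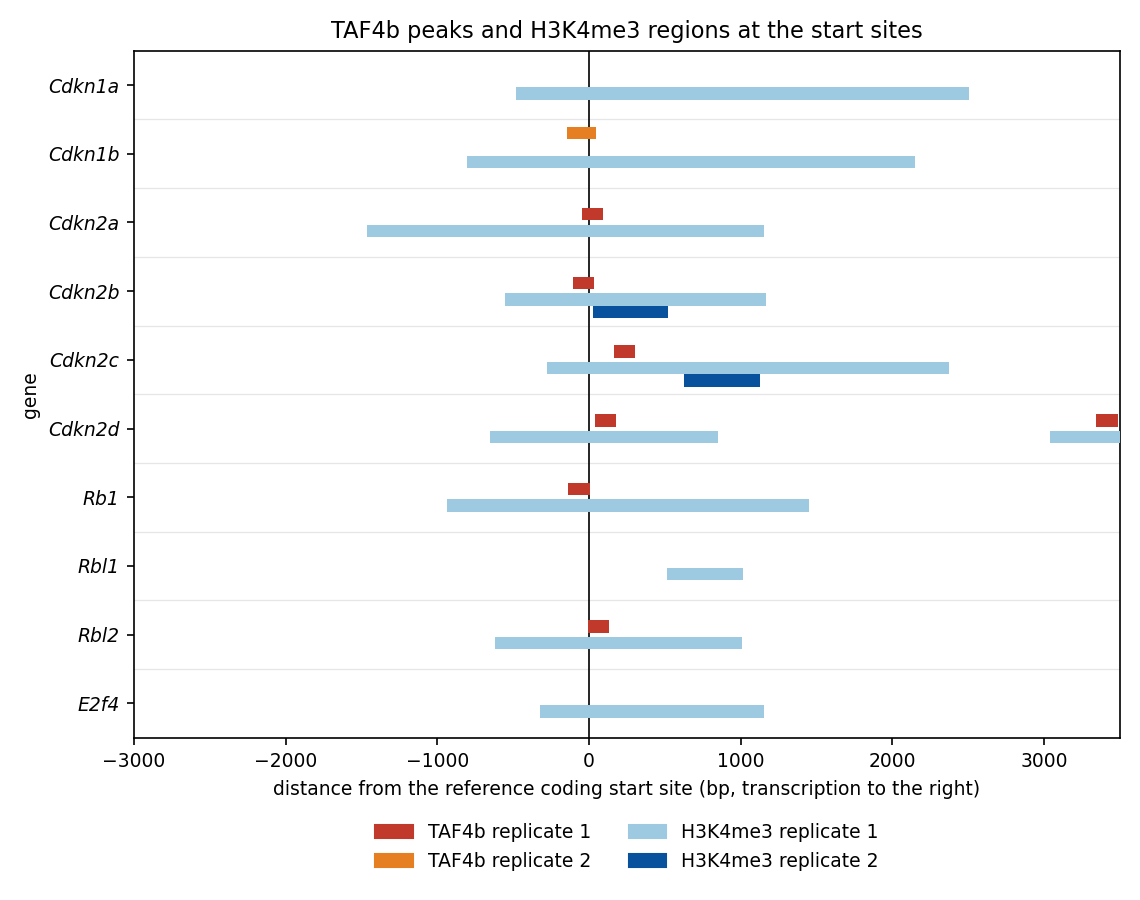
Intervals of the 4 libraries (colours) relative to the reference coding start site of each gene in bp, with transcription to the right. The TAF4b rows of Cdkn1b, Cdkn2a, Cdkn2b, Rb1 and Rbl2 cover the start, those of Cdkn2c and Cdkn2d begin 163 and 37 bp downstream of it, and the H3K4me3 region of Rbl1 begins 514 bp downstream. A further pair of intervals at the right of Cdkn2d belongs to the start of its neighbour Kri1.

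The 5 promoter-class rows of replicate 1 had a median score percentile of 39.8 among promoter rows, with an SD between genes of 27.4. Of the 5, only Cdkn2d and Cdkn2b were above the list's promoter median of 16.9. Most replicate 1 promoter rows with scores like those of Rbl2, Cdkn2a, Rb1 and Cdkn2b were not listed in replicate 2. In the score decile of Rbl2 0.792% of promoter rows overlapped a replicate 2 row, in that of Cdkn2a and Rb1 2.03%, and in that of Cdkn2b 5.36%. Of the 196 promoter rows that scored as high as Cdkn2d or higher, 121 (61.7%) were found again in replicate 2, and Cdkn2d was not.

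**Figure D3:**
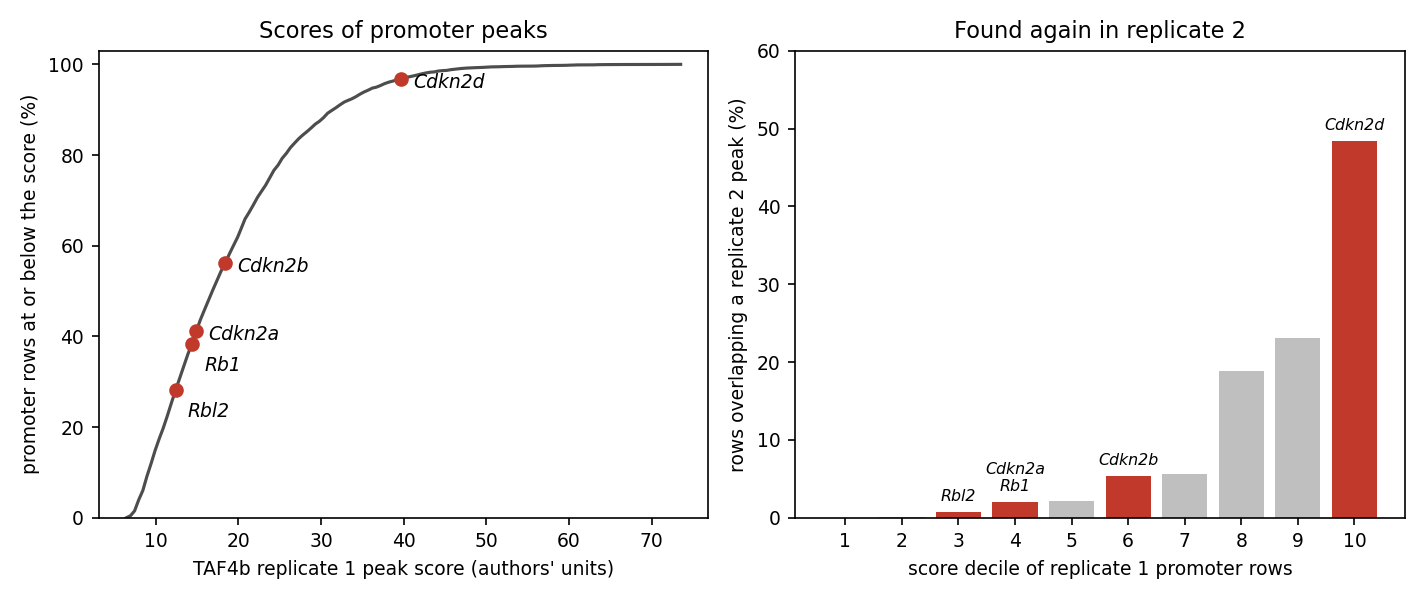
Left, cumulative percentage of TAF4b replicate 1 promoter rows by the authors' score, with the 5 genes as points. Right, percentage of those rows that overlap a replicate 2 peak, by score decile, with the deciles that hold the genes in red. Cdkn2d sits in the highest decile, of which 48.4% was found again, and the other 4 genes sit in deciles 3, 4 and 6.

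By the promoter class, 5 of the 10 genes had an H3K4me3 row in replicate 1 (Cdkn2a, Cdkn2c, Cdkn2d, Rb1 and Rbl2), beside 44.3% of all protein-coding genes, and Cdkn2c alone had one in replicate 2, beside 4.16%. The mean over the replicates was 3 of 10 (SD 2.83, n = 2). The regions over the starts of Cdkn1b, Cdkn2b and E2f4 were classed as exon, and the region over that of Cdkn1a was named to another gene. When intervals covering a coding start were counted whatever their class or name, 9 of the 10 genes had one in replicate 1, beside 61.9% of all genes, and only Rbl1 did not. In replicate 2 the count was 0 of 10, beside 4.80%. A nearest start site within 1000 bp gave all 10 genes in replicate 1, beside 62.4%, and Cdkn2b and Cdkn2c in replicate 2, beside 5.93%. Any named row also gave 10 and 2, beside 78.7% and 7.50%, as did intervals within 500 bp of an annotated start, beside 71.0% and 7.02%.

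The highest H3K4me3 scores of the group were at Cdkn1b, Cdkn1a and Cdkn2c. The Cdkn1b region scored 226.6 (rank 450 of 64891, 98.2nd percentile among promoter rows), was 2954 bp wide and reached from 802 bp upstream to 2152 bp downstream of the start. The Cdkn1a region scored 220.6 (rank 507), was 2983 bp wide, and lay on chromosome 17 at 29312259 to 29315242, from 479 bp upstream to 2504 bp downstream of the reference start. The deposited annotation gave that region to Dino, a noncoding RNA gene beside Cdkn1a, so that naming alone left Cdkn1a with 2 weaker rows, at scores of 56.6 and 26.8. The Cdkn2c region scored 205.7 (rank 660) over 2656 bp.

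The other regions over start sites scored 143.1 at Cdkn2d, 128.2 at the Cdkn2a ARF start, 117.8 at E2f4, 105.8 at Rb1, 80.5 at Cdkn2b and 68.6 at Rbl2. The 9 regions had a median score of 128.2 and a median width of 2387 bp, from 1482 bp at E2f4 to 2983 bp at Cdkn1a. Over the 12047 protein-coding genes with a region over their reference start, the medians were 98.4 and 1500 bp. All but the Cdkn2a region reached further downstream of the reference start than upstream, as did 69.1% of the regions of those 12047 genes. Rbl1 differed from the 9, with a single region of 500 bp, the smallest width in the list, with a score of 29.8 and beginning 514 bp inside the gene.

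In replicate 2, H3K4me3 was listed at Cdkn2b and Cdkn2c. Both regions had a score of 96.0, the lowest in that list, and the smallest width of 500 bp. The Cdkn2b region began 23 bp and the Cdkn2c region 626 bp downstream of the reference start, and both overlapped the replicate 1 region of the same gene. Cdkn1b and Cdkn1a, with higher replicate 1 scores, were not listed. Among replicate 1 promoter rows scoring as high as Cdkn2c or higher, 86 of 361 (23.8%) were found again.

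All 6 TAF4b rows of replicate 1 lay in an H3K4me3 region of replicate 1, beside 84.1% of all TAF4b rows of that list. The Cdkn1b row of replicate 2 overlapped no H3K4me3 region of replicate 2, where 12.4% of all rows did, and it lay in the Cdkn1b region of replicate 1, as 89.0% of all TAF4b replicate 2 rows lay in a region of that list. Against the H3K4me3 list of replicate 2, the Cdkn2b row alone among the 6 overlapped a region, beside 6.92% of all TAF4b replicate 1 rows. Of the 9 H3K4me3 regions over start sites, 6 held a TAF4b row of replicate 1, 1 held that of Cdkn1b from replicate 2, and those of Cdkn1a and E2f4 held none. Of the 12047 genes with such a region, 40.4% had a TAF4b row of replicate 1 in it, 6.14% one of replicate 2 and 58.8% neither. Among the 6 genes with both in replicate 1, Cdkn2c had the highest H3K4me3 score and the lowest TAF4b score, and Cdkn2d had the next highest H3K4me3 score and the highest TAF4b score.

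At the joined Cdkn2a and Cdkn2b locus on chromosome 4 the 3 coding starts differed. The starts of Cdkn2b and of ARF each had a TAF4b row inside an H3K4me3 region, and the INK4A start had neither over it. The nearest H3K4me3 region ended 6 bp upstream of the INK4A start, at 89200435 to 89201208, with a score of 25.3, against 128.2 at the ARF start. Further regions lay between ARF and Cdkn2b, at 89221280 to 89222357 with a score of 114.8, classed as intergenic, and at 89225049 to 89225761 inside Cdkn2b with a score of 32.8, and 2 more lay inside Cdkn2a with scores of 31.3 and 20.9. None of these held a TAF4b row.

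**Figure D4:**
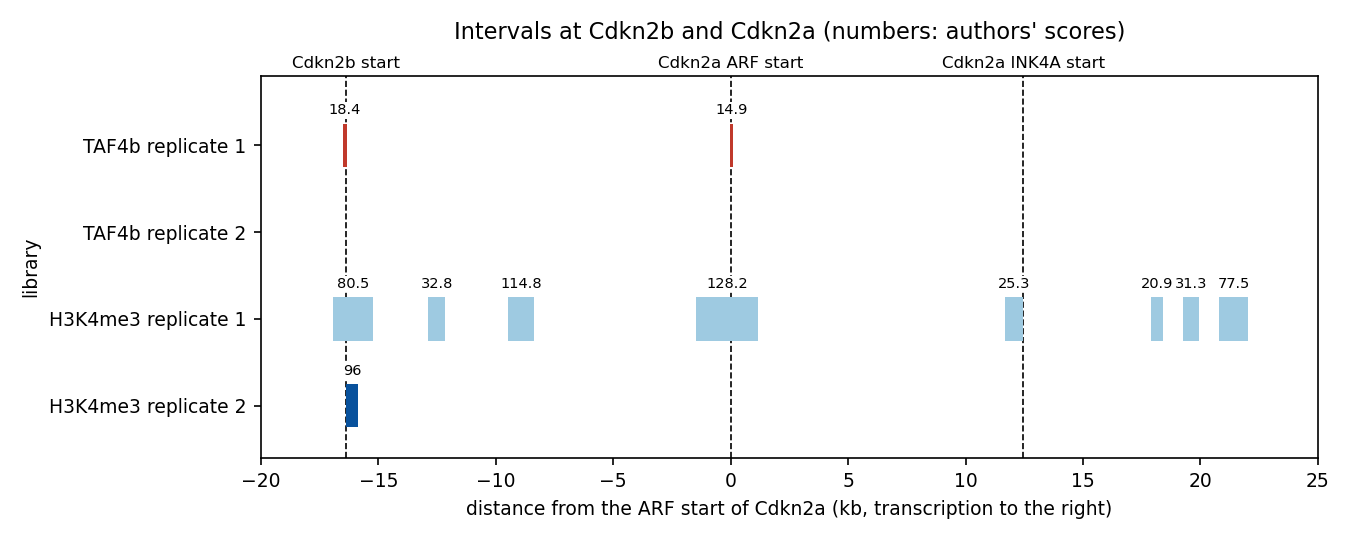
Intervals at Cdkn2b and Cdkn2a by library, in kb from the ARF start with transcription to the right, with the authors' scores above each and dashed lines at the coding starts. TAF4b replicate 1 has 1 peak at Cdkn2b and 1 at the ARF start, and the region next to the INK4A start has an H3K4me3 score of 25.3.

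Rows far from any start site of these genes came from H3K4me3 replicate 1. The region at the end of Cdkn2d (21198297 to 21199688, score 131.2) lay at the start of the neighbouring gene Kri1 and overlapped a TAF4b row named to Kri1. Rb1 had 2 weak regions of 500 bp, 1 in an exon and 1 at the end of the gene, with scores of 29.8 and 17.9, of which the exonic one lay nearest to the start of Lpar6, a receptor gene within an Rb1 intron.

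The printed promoters differed in base composition and motif content. GC content was 77.5% in the Cdkn2a ARF window, 64.6% in Rbl1, 62.1% in Cdkn1b, 60.7% in Cdkn2d and 56.1% in Cdkn2b, beside a median of 52.5% over 21571 coding promoters of the same length. Those of Cdkn2c and Rbl2, which also had TAF4b rows, were below that median, at 47.1% each. Those windows held no base of the Cdkn2c row and 37 bases of the Rbl2 row. The rows themselves had a GC content of 73.4% at Cdkn2c and 69.9% at Rbl2. The Cdkn2a window held 4 GC boxes and the Cdkn1b, Cdkn2b and Rbl1 windows held 1 each, and 35.7% of all windows held at least 1. E2F-type letters, found in 2.43% of all windows, were in the windows of 3 of the 8 genes searched, Cdkn2a (TTTCCCGC at -65), Cdkn2d (TTTCCCGC at -134) and Rbl1 (TTTCGCGC at 4). Of these 3 genes Rbl1 had no TAF4b row, and neither of the other matches lay inside one. The CRE of Cdkn2b has letters found in 2.05% of windows, and CCAAT boxes, found in 38.8%, occurred as a pair in both Cdkn1b and Cdkn2d. The Cdkn2d window held 2 GC boxes. CHR letters, in 19.2% of windows, occurred once in Cdkn2b and once in Cdkn2d, and also in the Rbl2 window, which is not printed. Of the 9 kinds of sequence searched, 4 were in none of the 5 windows: the ETS site (CCGGAAG, in 8.61% of all windows), the NRF1 site (4.58%), the TATA box (TATAAA, 13.1%) and the YY1 site (AAGATGGC, 1.67%).

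Inside the TAF4b rows themselves, read for Cdkn1b, Cdkn2a, Cdkn2b, Cdkn2c, Cdkn2d and Rbl2, GC boxes numbered 3 in Cdkn2a, 2 in Cdkn2d, 1 each in Cdkn1b, Cdkn2b and Rbl2 and 0 in Cdkn2c. Of all promoter rows 57.0% held one in replicate 1 and 70.7% in replicate 2, where rows were wider. The Rbl2 row also held CHR letters, found in 4.62% of replicate 1 promoter rows, and the Cdkn2b row the CRE, found in 4.45%. The Cdkn1b row held a CCAAT box, found in 58.3% of replicate 2 promoter rows. No row of these genes held an E2F-type match, found in 2.54% of promoter rows in replicate 1 and 4.44% in replicate 2. A match describes letters only.

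Other genes of the cell cycle were also examined, among them the cyclins and kinases, the E2F factors, and regulators of the inhibitors. Of 41 other cell cycle genes 17 had a TAF4b promoter row in replicate 1 and 2 in replicate 2, beside 22.9% and 3.17% of all protein-coding genes. An H3K4me3 promoter row was listed at 26 in replicate 1 and 1 in replicate 2, beside 44.3% and 4.16%. By role, TAF4b replicate 1 had rows at 3 of 10 cyclins (Ccna2, Ccnd3, Ccne2), 5 of 8 kinases and activating phosphatases, 3 of 9 other E2F and DP factors, 2 of 6 MuvB and MYB genes (Lin9, Mybl2), 2 of 6 regulators of the inhibitors (Fbxw7, Mdm2) and both other inhibitors (Cdkn1c, Cdkn3), to be read against the same 22.9%. Within 1000 bp of a start site the count over the 41 was 20, beside 24.0% of all genes. The MuvB and MYB genes rose to 4 of 6, with Lin52 and Rbbp4. The regulators of the inhibitors rose to 4 of 6, with Skp2 and Cul1. The kinases and activating phosphatases fell to 4 of 8, without Cdc25c, and the other lists kept their counts. Cdkn3, which encodes a phosphatase that acts on CDK2, had a TAF4b promoter row in both replicates, with scores of 23.3 in replicate 1 and 52.6 in replicate 2. It was the 1 gene of the 41 that did by promoter class. Of all 21571 protein-coding genes, 4935 had such a row in replicate 1, 683 in replicate 2 and 5031 in either, so most replicate 2 genes were also listed in replicate 1. Within 1000 bp of a start site Rbbp4, which encodes a histone-binding subunit of MuvB, was also listed in both. Under that rule 24.0% of all genes were listed in replicate 1 and 3.23% in replicate 2, and the share listed in both was not counted. E2f1, an activating E2F, had a TAF4b promoter row in replicate 2 alone (score 52.6), as Cdkn1b did.

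The commonest pattern among the 10 genes was a promoter-class row in replicate 1 of both antibodies and none in replicate 2. Cdkn2a, Cdkn2d, Rb1 and Rbl2 showed it, beside 13.3% of all protein-coding genes, and 13 of the 41 other genes had the same calls in 4 of 4 lists. The 3 of them with the highest TAF4b scores were E2f3 (37.2), Ccna2 (27.3) and Cdc25c (24.3), all below the 39.7 of Cdkn2d. Cdkn2b, with TAF4b replicate 1 alone by class, shared its calls with E2f5 (22.8) and Fbxw7 (22.8). None of the 41 had the calls of Cdkn2c, and 4.16% of all genes had an H3K4me3 promoter row in replicate 2. The share of all genes with the calls of Cdkn2b or of Cdkn2c was not counted.

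**Figure D5:**
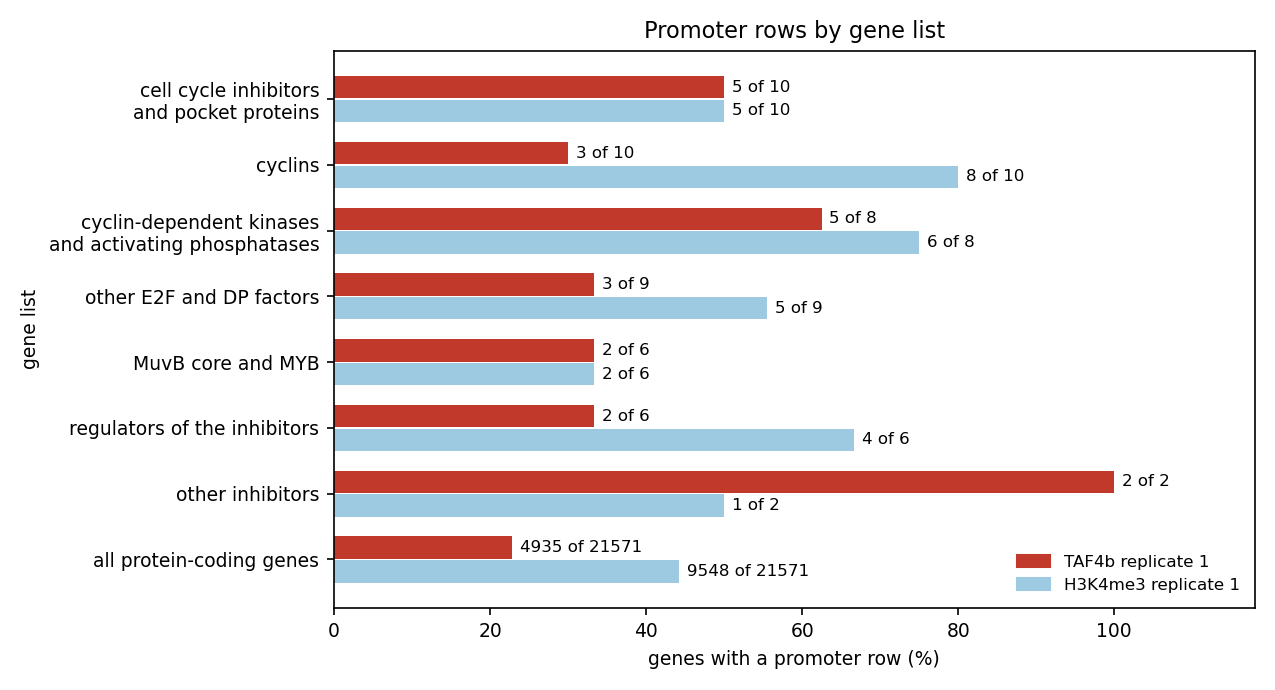
Percentage of genes with a promoter-class row in TAF4b replicate 1 and H3K4me3 replicate 1 for the 10 genes, 6 lists of other cell cycle genes and all protein-coding genes, with the counts beside the bars. The 10 genes stand at 5 of 10 for both antibodies, beside 4935 and 9548 of 21571 coding genes.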

How the data were processed

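TAF4b and H3K4me3 CUT&RUN lists, 1 per library (2 replicates each), were used as deposited. Per the submitters' processing notes the tools included Trim Galore 0.5.0, Bowtie2 2.3.0, SAMtools 1.9 and HOMER 4.10 with the GRCm39 build. Per the file headers, H3K4me3 regions were annotated by HOMER against GRCm39 and Ensembl 103. The caller's settings and threshold are not given in the sources used here. The deposited peak score has no stated normalization and was ranked only within a list. The deposited focus ratio of TAF4b peaks, a fraction, was not used. Read depth is unknown, which limits statements on missing rows.

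Transcripts were matched to genes in GENCODE M39 (98.9%, 99.2%, 98.6% and 98.8% of nearest transcripts in TAF4b replicates 1 and 2 and H3K4me3 replicates 1 and 2). A promoter row was one of the promoter-TSS class whose transcript matched. A gene's reference start was the coding start used by the most of its coding transcripts. Coordinates are as deposited, widths are end minus start, and intervals overlapped from 1 bp. The analysis used Python 3.11.15 with pandas 2.3.3, and the overlap and motif searches were checked on simulated data. Sequences were read from GRCm39 for the 8 of 10 genes with an entry in the RefSeq promoter table, which leaves out Rb1 and E2f4. Replicate numbers come from the sample titles. The genes and lists were chosen with earlier results of these data known, so no test was run on them. All 10 genes are named. Other cell cycle genes are named when they had a TAF4b promoter row in both replicates, otherwise the up to 3 highest TAF4b replicate 1 scores of a list, and E2f1, Rbbp4, Lin52, Skp2, Cul1, Gata4, Wt1, Pdgfra, Ptprc, Sall4, Dino, Kri1 and Lpar6 were chosen after their values were seen.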

Additional observations from a re-analysis of the deposited data

How the results depend on the processing

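No paired analysis was possible because the results come from no test, and the overlap of antibodies was already counted within same-numbered libraries. Of 34 alternative values, those that leave out a replicate not counted, 18 stayed within 1.5 times the count, or within the spread, of the reported value and 16 did not. In TAF4b replicate 1 the count of 5 genes became 3 in the higher-scoring 50% of the list and 1 with as many rows as replicate 2 lists, and in replicate 2 the count of 1 became 0 in the higher-scoring 50%. In H3K4me3 replicate 1 the count of 5 became 10 within 1000 bp of the nearest start site, 10 for any row named to the gene, 10 within 500 bp of an annotated start, 9 for intervals covering a coding start and 1 with equal numbers of rows. In H3K4me3 replicate 2 the count of 1 became 2 under the first 3 of these, 0 for intervals covering a start and 0 in the higher-scoring 50%. The number of TAF4b rows in H3K4me3 regions went from 6 to 1 in replicate 1 and from 0 to 1 in replicate 2 with the H3K4me3 list of the other replicate, and to 3 of 3 remaining rows in the higher-scoring 50% of both lists, which left no replicate 2 row to count. Fewer rows account for the lower counts in shortened lists by construction, and otherwise the cause was not tested. Leaving out each replicate in turn gave 1 to 5 genes for TAF4b and 1 to 5 for H3K4me3, around means of 3, and says nothing on stability with 2 replicates. Counting intervals that cover a coding start, and counting the other cell cycle genes within 1000 bp, were chosen after seeing the data.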
